A study of Homo sapiens with 74 samples.

Results

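Chromatin accessibility was compared directly between HAP1 cells that lack ARID2 and HAP1 cells that lack PBRM1. The comparison took the 2 libraries of the ARID2 knockout and the 2 libraries of the PBRM1 knockout from the table of knockout libraries, 4 of the 74 samples in the series, and wild-type cells did not enter the test. HAP1 is a human leukaemic cell line that carries a single copy of most chromosomes, so that 1 edited allele removes a gene. Each knockout is a single clone, numbered 9-907 for ARID2 and 10-1135 for PBRM1, and the wild-type cells are clone C631. With 1 clone per gene, a difference made by the lost gene and a difference between the clones cannot be told apart.

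ARID2 and PBRM1 are subunits of PBAF, a form of the BAF (SWI/SNF) complexes, which slide and evict nucleosomes with the energy of ATP. PBAF is built on the same core and the same ATPases, SMARCA4 or SMARCA2, as canonical BAF, but holds ARID2 in the place of ARID1A or ARID1B, together with PBRM1, BRD7 and PHF10. ARID2 is a DNA-binding subunit around which PBAF assembles, whereas PBRM1 is a peripheral subunit with a row of bromodomains that bind acetylated histones. Setting the clones directly against each other asks where the loss of either PBAF subunit leaves different accessibility.

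In the assay, ATAC-seq, a transposase inserts sequencing adapters where DNA is open, so that the read count of a region measures its accessibility. The knockout table held 52 knockout libraries, a pair from each of 26 clones, beside 4 libraries of wild type (replicates 1, 2, 5 and 6). A separate table of 16 libraries held knockdowns of ARID2, of SMARCA4, of both or of a control. The groups of that table used below are wild-type cells with an ARID2 knockdown, wild-type cells with a control knockdown and ARID2 knockout cells with a control knockdown, each with 2 libraries and with no clone, time or dose given.

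Library totals over all regions were 9656897 and 9261111 counts for ARID2 and 9679785 and 9980181 for PBRM1, within the 5085811 to 12422345 of the knockout libraries. The median region held 32 and 34 counts in the ARID2 libraries and 36 and 34 in the PBRM1 libraries. The replicates correlated at r = 0.915 for ARID2 and 0.923 for PBRM1, across regions, which are not independent replicates. Because the labels do not state that the libraries of a clone came from separate cultures, the p-values measure the spread between libraries, which may be technical. Values are given below in CPM (read counts relative to library size), scaled by the TMM method, and differences as log2 fold changes, ARID2 minus PBRM1, with their standard error (SE). A region with an adjusted p of at most 0.05 in the quasi-likelihood test of edgeR, run on all knockout libraries, is said to be called. Regions are named by hg19 coordinates, and no gene names are attached to them.

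Accessibility in approximate intervals around the edited genes did not separate the clones. These intervals were placed from general knowledge, so some of their regions may lie outside the genes. The interval of ARID2 on chromosome 12 held 16 regions and that of PBRM1 on chromosome 3 held 11. None of these 27 regions was called by edgeR, 1 had an unadjusted p under 0.05, the smallest adjusted p was 0.326, and DESeq2 called 0. The region chr12:46122372-46123565 in the ARID2 interval measured 47.3 and 43.3 CPM in the ARID2 libraries and 40.3 and 41.9 CPM in the PBRM1 libraries. In the PBRM1 interval, chr3:52719269-52720362 measured 21.7 and 18.2 against 14.6 and 17.7 CPM (edgeR adjusted p = 0.674). Accessibility does not show whether a coding edit is present, so these values do not check the labels.

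Between the clones, 1696 of 145532 regions tested were called, 1.17% of all. Of these, 1219 were lower in the ARID2 knockout, 0.838% of regions tested, and 477 were higher, 0.328%. The lower regions had median values of 4.32 and 3.94 CPM in the ARID2 libraries and 9.48 and 10.6 CPM in the PBRM1 libraries. The higher regions had medians of 10.9 and 8.49 CPM in the ARID2 libraries and 3.87 CPM in each PBRM1 library. The median log2 fold change was −1.25 in the lower and 1.29 in the higher regions, against −0.00944 over all regions, with the smallest called differences at −0.605 and 0.611. In each of the 1696 regions both ARID2 libraries lay on the same side of both PBRM1 libraries, which was also the case at 18.5% (below) and 18.7% (above) of all regions tested. A larger set of 14864 regions had an unadjusted p under 0.05.

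The number of calls and their direction rested on single libraries. Without ARID2 replicate 1 the count was 1212, with 1053 lower and 159 higher, and without ARID2 replicate 2 it was 998, with 477 lower and 521 higher, so that the lower share went from 71.9% to 47.8%. Without PBRM1 replicate 1 it was 979 (756 lower and 223 higher), and without PBRM1 replicate 2 it was 528 (367 lower and 161 higher). Of the 1219 lower regions, 660, 383, 692 and 360 were still called lower in these 4 fits, in the order given, and of the 477 higher regions 125, 337, 156 and 134 were still called higher. None of the 1696 was called in the opposite direction in any of them. The lack of overlap between the clones' libraries at these regions largely fixes that in advance. The ARID2 replicates differed at the higher regions, where replicate 1 exceeded replicate 2 by a median of 0.336 on the log2 scale, against 0.00998 over all regions. On the authors' deposited normalized values, limma called 1320 lower and 822 higher regions, a lower share of 61.6%, with the median of all regions shifted to 0.0431. With each library taken relative to its median, the same test called 1593 lower and 662 higher, a lower share of 70.6%.

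**Figure D1:**
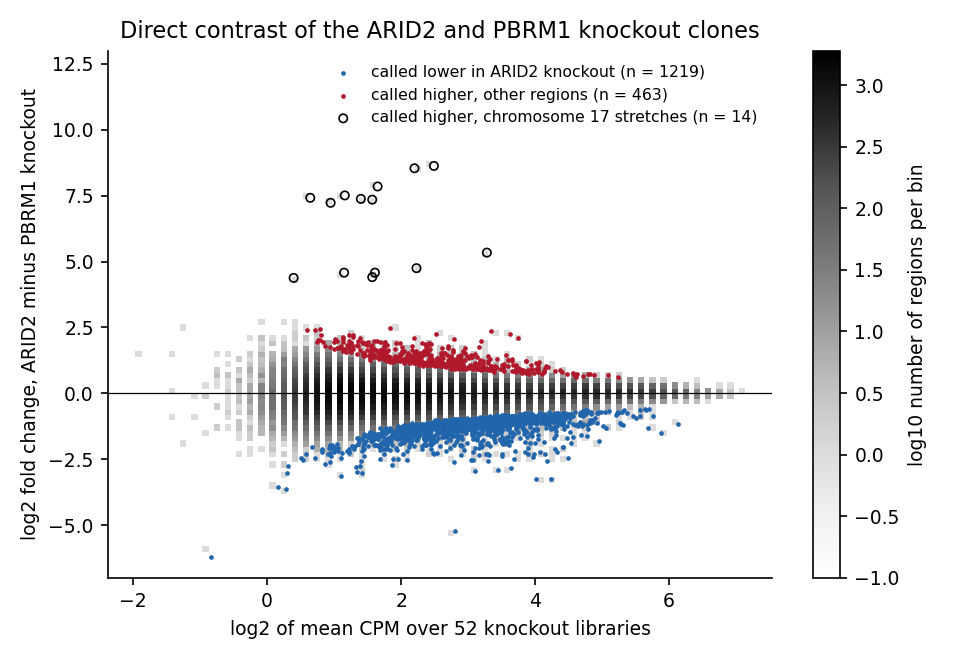
Mean accessibility of each region (log2 CPM, horizontal axis) against its log2 fold change, ARID2 minus PBRM1 knockout (vertical axis); shading counts all 145532 regions tested, blue and red points are called regions, and circles are called regions of the chromosome 17 stretches, whose fitted values where PBRM1 has no read depend on the prior count. The 1219 lower regions lie mostly to the right, at higher accessibility, and the 14 regions of the chromosome 17 stretches lie at the top.

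The region with the smallest p-value was chr21:23084151-23085519. It measured 2.53 and 3.13 CPM in the ARID2 libraries, 24.7 and 28.5 CPM in the PBRM1 libraries, and 20.8, 12.2, 30.7 and 26.4 CPM in wild-type replicates 1, 2, 5 and 6. These PBRM1 and wild-type libraries all lay above both ARID2 libraries (log2 fold change −3.24, SE 0.257, edgeR adjusted p = 2.27e-20). Of the 24 other clones, 2 lay below the ARID2 clone, the lowest being 1 of the ARID1B clones at 1.26 CPM. The other PBAF knockouts lay between ARID2 and PBRM1, at 8.89 ± 2.48 CPM for BRD7 and 14.1 ± 1.05 CPM for PHF10 (SD, n = 2 each). So did the median of the 24 other clones, at 14.5 CPM. About a megabase away, chr21:22033472-22035322 measured 1.79 and 3.44 CPM in the ARID2 libraries and 23.3 and 26.1 CPM in the PBRM1 libraries (log2 fold change −3.25, SE 0.272, edgeR adjusted p = 8.45e-19). Here the BRD7 and PHF10 knockouts were low as well, at 2.94 ± 0.568 and 4.72 ± 1.76 CPM (SD, n = 2 each), the SMARCA4 clones were at 28.9 ± 7.64 CPM (SD, n = 2 clones), and the same ARID1B clone was again the lowest of the 24 other clones, at 2.4 CPM. At this site the PBRM1 libraries were high and those of the 3 other PBAF knockouts low.

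The largest decrease among the named regions was at chr2:205911874-205912636. It measured 0 and 0.404 CPM in the ARID2 libraries and 7.35 and 8.84 CPM in the PBRM1 libraries, 4 counts in all against 165. Wild type measured 5.88 to 9.08 CPM, and the SMARCA2 clone, at 0.118 CPM, was the only other clone below the ARID2 clone (log2 fold change −5.23, SE 0.477, edgeR adjusted p = 1.89e-16). On its 2 sides, 4 neighbouring regions at distances of 12.9 to 222 kb were not called, and the one 12.9 kb away measured 15.4 and 11 CPM against 12.5 and 16.9 CPM. Separate ARID2 knockout libraries of the knockdown table had no read in this region. Wild-type cells with an ARID2 knockdown held 7.41 and 4.88 CPM, beside 7.22 and 6.17 CPM under the control knockdown. The labels give no clone for those ARID2 knockout libraries, so they may come from the same clone. A change particular to that clone and an effect of ARID2 loss cannot be told apart here.

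At several regions the ARID2 knockout was low while the PBRM1 knockout was at or above the wild-type level. The region chr2:219725484-219726116 measured 3.69 and 3.74 CPM in the ARID2 libraries, 16.5 and 27.2 CPM in the PBRM1 libraries and 16.3 to 21.8 CPM in wild type (log2 fold change −2.57, SE 0.249, edgeR adjusted p = 5.85e-15). All 24 other clones lay above the ARID2 clone there, the lowest being a SMARCA4 clone at 5.77 CPM. At chr20:17207110-17207911 the ARID2 libraries held 3.16 and 2.83 CPM and the PBRM1 libraries 19 and 23.4 CPM, with wild type at 11 to 18 CPM (log2 fold change −2.84, SE 0.263, edgeR adjusted p = 4.92e-16). The SMARCA4 clones were again low, at 3.6 ± 0.74 CPM (SD, n = 2 clones). The same order held at chr8:22807942-22808568, with 2.42 and 2.53 CPM for ARID2 and 12.4 and 16.9 CPM for PBRM1, and at chr3:10636508-10637145, with 1.79 and 1.62 CPM for ARID2 and 9.1 and 11.2 CPM for PBRM1.

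At chr16:80079970-80080676 both knockouts were below wild type, by different amounts. The ARID2 libraries held 0.527 and 1.01 CPM, the PBRM1 libraries 6.19 and 5.76 CPM, and wild type 12.2 to 17.9 CPM. The direct difference was −2.95 (SE 0.385, edgeR adjusted p = 5.47e-09), and against wild-type replicates 1 and 2 the log2 fold change was −4.02 for ARID2 (edgeR adjusted p = 8.13e-18) and −1.09 for PBRM1 (edgeR adjusted p = 0.0174). The SMARCA4 clones measured 0.969 ± 0.256 CPM (SD, n = 2 clones). At chr5:170735779-170736459 the direct difference of −2.54 (SE 0.282, edgeR adjusted p = 5.15e-12) lay instead on the PBRM1 side. PBRM1 measured 18.9 and 15.8 CPM, against 3.48 and 2.53 CPM for ARID2 and 3.98 to 8.07 CPM for wild type. PBRM1 was above wild type by 1.93 (edgeR adjusted p = 1.35e-07), while ARID2 minus wild type was −0.594 (edgeR adjusted p = 0.482).

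The 2 most accessible of the lower regions changed by smaller folds at many more reads. At chr6:82461212-82464101 the ARID2 libraries measured 32.9 and 28.3 CPM and the PBRM1 libraries 66 and 71.3 CPM (log2 fold change −1.18, SE 0.16, edgeR adjusted p = 2.13e-08). At chr3:105085211-105087201 they measured 22.7 and 20.2 CPM and 59.9 and 61.9 CPM (log2 fold change −1.52, SE 0.173, edgeR adjusted p = 1.63e-11). At both, all 24 other clones and all 4 wild-type libraries lay above the ARID2 libraries. The remaining named lower regions were chr3:104875737-104876799 (1.9 and 1.31 against 11.5 and 12.1 CPM), chr7:157698126-157698880 (1.69 and 1.21 against 8.71 and 10.1 CPM) and chr5:88989626-88990392 (0.527 and 1.21 against 5.32 and 4.77 CPM).

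Regions higher in the ARID2 knockout fell into several kinds by their wild-type level. At chr1:26736378-26737533 the ARID2 libraries measured 28.8 and 25.6 CPM, the PBRM1 libraries 7.64 and 6.06 CPM and wild type 2.44 to 8.96 CPM. The ARID2 clone was above all 24 other clones, of which a SMARCA4 clone, at 26.7 CPM, came nearest (log2 fold change 1.97, SE 0.252, edgeR adjusted p = 2.7e-09). At chr13:91137516-91138409 the ARID2 libraries measured 22.1 and 16 CPM, the PBRM1 libraries 2.42 and 4.87 CPM and wild type 2.72 to 5.33 CPM (log2 fold change 2.37, SE 0.269, edgeR adjusted p = 1.58e-11). The SMARCA4 clones stood with ARID2 there, at 22.8 ± 3.57 CPM (SD, n = 2 clones).

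The region chr6:158843514-158844231 was high in ARID2 and BRD7 knockouts and low in the other 2 PBAF knockouts. It measured 19.6 and 21.5 CPM in the ARID2 libraries and 4.55 and 5.26 CPM in the PBRM1 libraries (log2 fold change 2.05, SE 0.267, edgeR adjusted p = 5.35e-09). BRD7 measured 18.5 ± 3.47 CPM and PHF10 4.2 ± 0.471 CPM (SD, n = 2 each), with wild type at 2.72 to 4.06 CPM. One clone of BCL7B, a subunit shared by BAF forms, was higher still, at 29.1 CPM.

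At chr3:181412672-181413622 ARID2 was at the wild-type level and PBRM1 was low. The ARID2 libraries measured 13.8 and 12.9 CPM, the PBRM1 libraries 3.39 and 2.09 CPM and wild type 10.2 to 14.6 CPM (log2 fold change 2.26, SE 0.271, edgeR adjusted p = 1.63e-10). PBRM1 minus wild type was −2.26 (edgeR adjusted p = 4.39e-10), and the PHF10 knockout was low too, at 3.71 ± 0.338 CPM (SD, n = 2). The lowest of the 24 other clones was 1 of the BCL7B clones, at 3.23 CPM. The same side held at chr13:108358149-108359288, with 8.01 and 6.06 CPM for ARID2, 1.35 and 1.89 CPM for PBRM1 and 5.14 to 8.8 CPM for wild type. There PHF10 was low too, at 1.77 ± 0.362 CPM (SD, n = 2), as were the SMARCA4 clones, at 1.46 ± 0.913 CPM (SD, n = 2 clones). BRD7 measured 4.28 CPM.

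In a few higher regions the ARID2 replicates differed from each other. At chr8:58787836-58788675 they measured 16.9 and 7.38 CPM, with PBRM1 at 2.71 and 1.59 CPM, and at chr7:80471155-80471835 they measured 18.8 and 8.99 CPM, with PBRM1 at 2.71 and 2.98 CPM. Both ARID2 values exceeded both PBRM1 values, which the choice of named regions required. The ARID2 replicates lay closer together at chr17:7254833-7255685 (18.9 and 19.4 against 5.42 and 3.28 CPM), chr18:53855954-53856746 (25.8 and 18.2 against 6.97 and 4.67 CPM), chr5:45110402-45111338 (6.43 and 6.37 against 1.74 and 1.59 CPM) and chr13:65282971-65283707 (7.17 and 5.56 against 1.55 and 1.79 CPM). The 2 most accessible higher regions differed least. At chr1:156675274-156676975 the values were 61.4 and 49.9 against 33.3 and 35.3 CPM (log2 fold change 0.68, SE 0.168, edgeR adjusted p = 0.0129), and at chr17:7463547-7465861 they were 35.5 and 46.1 against 24.2 and 28.5 CPM (log2 fold change 0.611, SE 0.174, edgeR adjusted p = 0.0491). Both calls were lost when PBRM1 replicate 1 or PBRM1 replicate 2 was left out, the former also without ARID2 replicate 1 and the latter without ARID2 replicate 2.

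**Figure D2:**
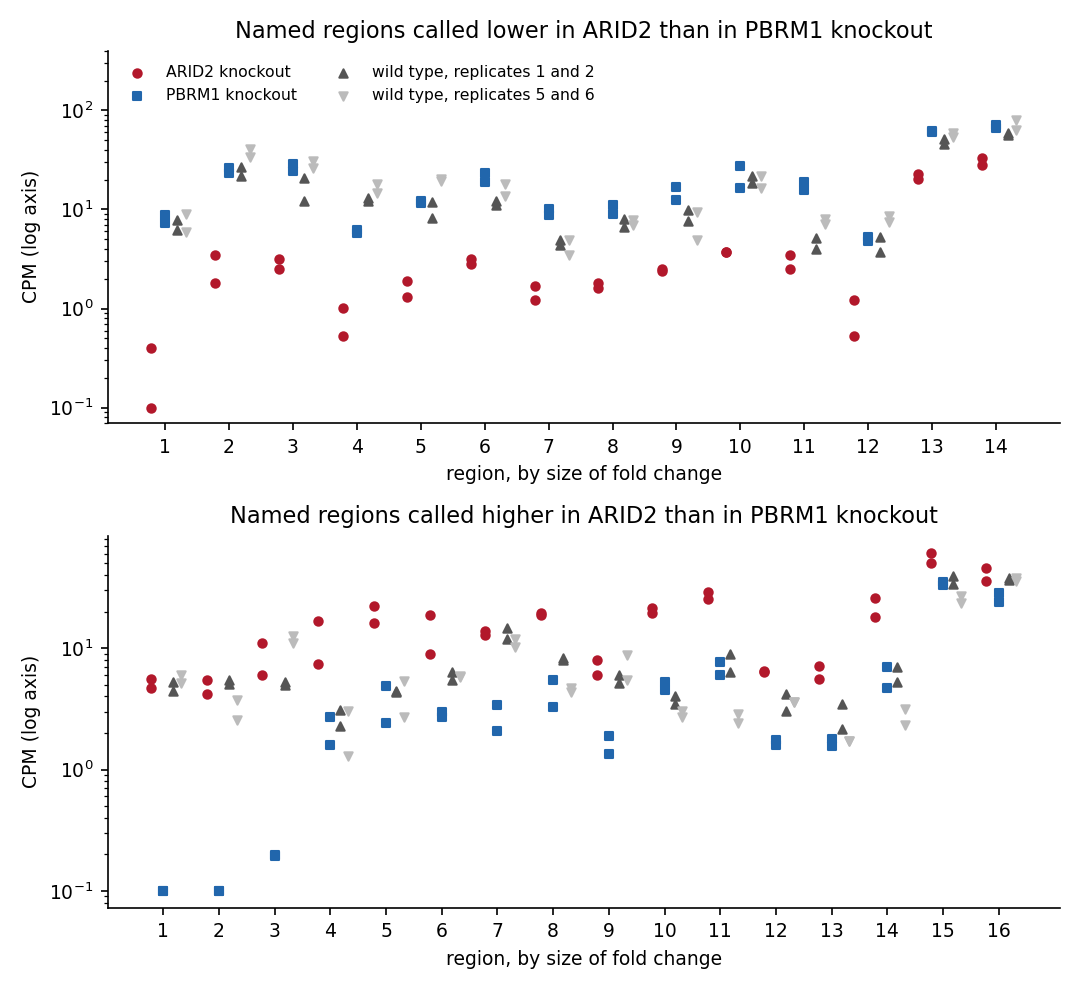
CPM on a log axis in each ARID2, PBRM1 and wild-type library at the 30 named regions, numbered by the size of their fold change within each direction; a value of 0 CPM is drawn at 0.1. In the 14 lower regions both ARID2 points lie below both PBRM1 points, and in the 16 higher regions both lie above, which the choice of named regions required.

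The highest fold changes came from a single place. On chromosome 17 the PBRM1 libraries were almost empty over a pair of adjoining stretches, from 70587576 to 70628111 with 5 regions and from 70633445 to 70739542 with 9 regions. Summed over these 14 regions, the ARID2 libraries held 446 and 460 counts, wild-type replicates 1 and 2 held 451 and 384, and the PBRM1 libraries held 9 and 6. All 14 were called higher in ARID2. At chr17:70588648-70589325 the ARID2 libraries measured 11.1 and 6.06 CPM and the PBRM1 libraries 0.194 and 0.199 CPM. Neither PBRM1 library had a read at chr17:70598844-70599756 and chr17:70723697-70724335, where ARID2 was at least 35-fold and 32.9-fold higher, with 3 counts over the PBRM1 libraries as the floor.

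Between the stretches lay 1 further region, chr17:70628315-70628816, with 1.58 and 0.909 CPM for ARID2 and 0.387 and 0.199 CPM for PBRM1 (log2 fold change 2.02, SE 0.74, edgeR adjusted p = 0.209). The 5 regions flanking the 152 kb span were not called by edgeR, and their median log2 fold change was −0.457. No other knockout clone was low at the 3 named regions of the stretches, where the lowest of the 24 others measured 4.77, 3.79 and 2.92 CPM. Without these 14 regions, 1682 were called, with 463 higher. Whether the DNA itself is missing in the PBRM1 clone was not tested.

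**Figure D3:**
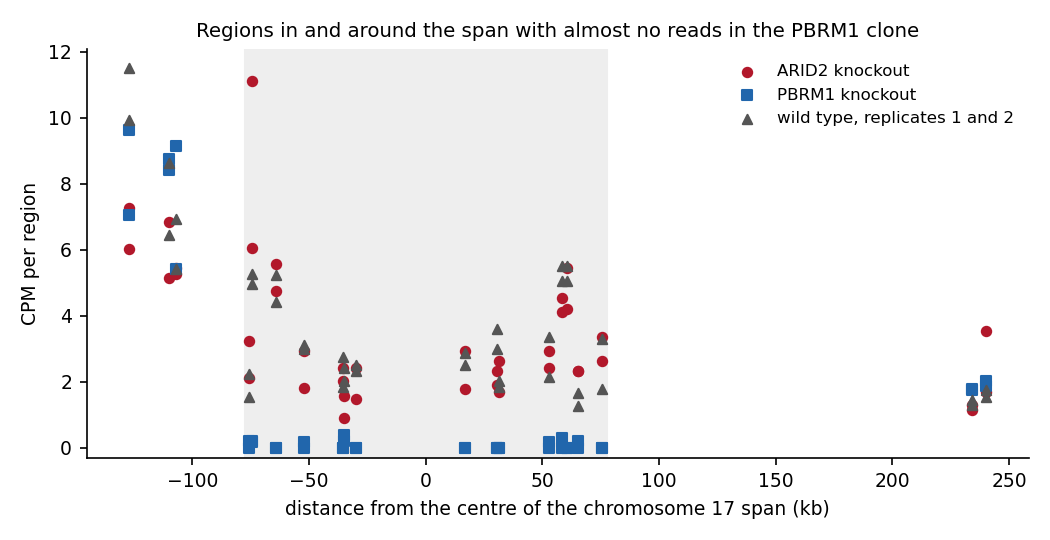
CPM of each region in the ARID2 and PBRM1 libraries and wild-type replicates 1 and 2 against distance in kb from the centre of the chromosome 17 span (shaded). Inside the span the PBRM1 points lie at or near 0 in all 15 regions, and at the 5 regions outside it they run from 1.74 to 9.63 CPM.

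The 2 directions differed in where the called regions lay. Lower regions were more accessible, with a median of 8.37 CPM over the knockout libraries, against 5.54 CPM for higher regions and 3.4 CPM for all. In 4 equal groups of regions, from the least to the most accessible, the share called lower was 0.0907%, 0.225%, 0.913% and 2.12%, and the share called higher was 0.0687%, 0.236%, 0.489% and 0.517%. More reads also make a given fold easier to call. Called regions were wider, with medians of 822 and 730 base pairs for lower and higher, against 622 for all.

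Lower regions lay more often in parts of the genome with few accessible regions. Grouped by the number of regions within 500 kb, in 4 equal groups, the sparsest group had 1.5% called lower and 0.267% called higher, and the densest group 0.385% and 0.407%. A small shift of all regions went the same way, with a median log2 fold change of −0.0979 in the sparsest group and 0.0595 in the densest. Its sign was the same in all 4 pairings of an ARID2 with a PBRM1 library, from −0.103 to −0.0438 in the sparsest and from 0.0464 to 0.0948 in the densest group. By chromosome, the medians ran from −0.116 on chromosome 18 to 0.103 on chromosome 19, leaving aside the 3 regions of chromosome Y. The chromosome 19 shift came from 1 library: ARID2 replicate 2 exceeded the PBRM1 libraries there by 0.221 and 0.223, and ARID2 replicate 1 by 0.00622 and 0.00242.

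Some calls lay near others of the same direction. Another lower region lay within 100 kb of 25.1% of the lower regions, and another higher region within 100 kb of 14% of the higher ones, whose number is smaller. Within 10 kb the shares were 7.38% and 6.29%. Of 2788 windows of 1 Mb with at least 10 regions, 1146 held a called region and 352 held 2 or more. Of these 352, 254 held calls of a single direction. The 2788 windows had a median of 52 regions. Whether calls lie near each other or share windows more than equally many of all regions was not tested. After the chromosome 17 stretches, with 14 higher regions in 1 window, the fullest windows held 7 lower regions each, on chromosome 1 from 163000000 and on chromosome 2 from 13000000. The lowest medians over all regions of a window were −1.03 and −1.06, in the neighbouring windows of chromosome 21 from 22000000 and from 23000000, which hold the pair of chromosome 21 regions described above. There, 6 of 23 and 3 of 19 regions were called lower and none higher.

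Calls were also counted in approximate hg19 intervals of large genes and gene clusters, placed from general knowledge. A set of 10 very large genes held 792 regions, of which 19 (2.4%) were called lower and 0 higher, beside 0.838% and 0.328% of all regions. CNTNAP2, which encodes a neuronal adhesion protein, had the most calls, 6 lower of 77 regions, with a median log2 fold change of −0.386. DMD, the dystrophin gene, had 2 lower of 70. Other genes of the set had fewer, with 1 lower of 140 regions in PTPRD, 1 of 79 in LRP1B and 0 of 67 in FHIT. The 4 HOX clusters, which encode homeodomain factors of body patterning, had 1 called of 95 regions (1.05%), lower and in HOXC. The loci of 6 BAF subunits had 1 called of 93 (1.08%), higher and in SMARCA2, and the major histocompatibility complex and the clustered protocadherins had 0 called by edgeR of 362 and of 49, with smallest adjusted p-values of 0.0627 and 0.249. The segment of chromosome 15 that HAP1 carries in a second copy had 18 called of 2558 regions, 0.704%, beside 1.17% of all regions.

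Wild type, which did not enter the test, lay nearer to PBRM1 at most called regions. The lower regions had medians of 8.44 and 7.65 CPM in wild-type replicates 1 and 2 and of 12.2 and 11.8 CPM in replicates 5 and 6. The higher regions had medians of 5.24 and 5.14 CPM, and of 3.58 and 3.75 CPM, in the same libraries. On the log2 scale, the mean of wild-type replicates 1 and 2 was nearer to PBRM1 than to ARID2 at 75.9% of the lower and 68.6% of the higher regions, and that of replicates 5 and 6 at 88.6% and 80.1%. The titles of replicates 5 and 6 have another form, shared with 3 knockout clones, and the ARID2 and PBRM1 libraries have the form of replicates 1 and 2.

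Against wild-type replicates 1 and 2, ARID2 had 1610 regions called lower, 1.11% of those tested, and 992 higher, 0.682%. PBRM1 had 353 called lower, 0.243%, and 262 higher, 0.18%. These comparisons share the wild-type libraries with each other and a knockout clone with the direct contrast, so their values are set side by side as a description. At the 1219 lower regions the median log2 fold change against wild type was −0.916 for ARID2, with 526 called lower, and 0.341 for PBRM1, with 56 called higher. At the 477 higher regions it was 0.91 for ARID2, with 197 called higher, and −0.355 for PBRM1, with 44 called lower. Leaving out single libraries of the groups compared lowered the counts: for ARID2 the total of 2602 became 1039 and 2164 without ARID2 replicate 1 or 2, and 884 and 1378 when wild-type replicate 1 or 2 was left out. For PBRM1 the total of 615 became 304 and 116 without PBRM1 replicate 1 or 2, and 166 and 209 when wild-type replicate 1 or 2 was left out. With all 4 wild-type libraries pooled the totals were 11057 and 3361.

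The other knockout clones give libraries that the direct contrast does not compare. SMARCA4, the ATPase shared by BAF and PBAF, was knocked out in a pair of clones. At the lower regions, the SMARCA4 knockout minus wild-type replicates 1 and 2 had a median log2 fold change of −1.2, and 843 of 1219 regions (69.2%) were called lower, against 13.9% of all regions tested. At the higher regions the median was 0.507, and 198 of 477 (41.5%) were called higher, against 8% of all. Since calls are more frequent at accessible regions, the same was read in the most accessible of the 4 groups, where 76.2% of the lower regions were called lower against 21% of all regions, and 49.5% of the higher regions were called higher against 20%.

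ARID1A, the counterpart of ARID2 in canonical BAF, gave another pattern. At the lower regions the ARID1A knockout minus wild type had a median of −0.446, with 40.2% called lower against 10.3% of all regions. At the higher regions its median was −0.233, with 23.1% called lower and 8.39% called higher, against 2.27% of all called higher. With all 4 wild-type libraries pooled, the ARID1A medians were −0.768 at the lower and −0.0547 at the higher regions. BRD7 and PHF10, the other PBAF subunits, lay near wild type at the lower regions, with medians of 0.0813 and −0.0364. BRD7 had 5.25% of the lower regions called lower and 3.77% called higher, against 0.312% and 0.383% of all. PHF10 had 2.63% called lower and 0.902% called higher, against 0.243% and 0.148% of all, and a median of 0.26 at the higher regions, where 4.19% were called higher.

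Set against the median of the 24 clones other than ARID2 and PBRM1, each clone was placed by its median over the called regions. ARID2 lay at −0.884 at the lower regions and PBRM1 at 0.269, an order that the choice of regions fixes. The SMARCA4 clones lay lower than ARID2, at −1.15 and −1.04, followed by the ARID1A clones at −0.468 and −0.423 and the clone of SMARCC1, a core subunit, at −0.317. At the higher regions ARID2 lay at 0.917 and PBRM1 at −0.258. The next highest clones were SMARCA4 at 0.499 and 0.413, BCL7A at 0.478 and SMARCD2 at 0.416. Wild-type replicates 1 and 2 lay at −0.0469 and 0.0449, and replicates 5 and 6 at 0.414 and −0.298.

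**Figure D4:**
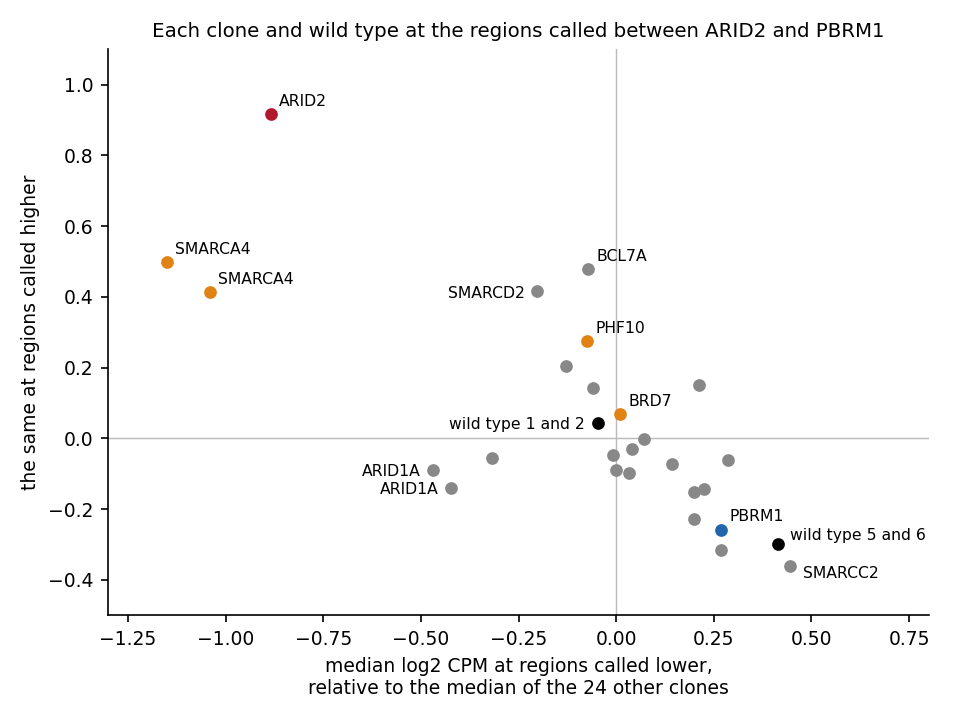
Median log2 CPM relative to the median of the 24 other clones at the 1219 lower regions (horizontal axis) and the 477 higher regions (vertical axis), with a point per clone (orange for SMARCA4, BRD7 and PHF10) or wild-type pair (black). The SMARCA4 clones lie at −1.15 and −1.04 at the lower regions, beyond ARID2 at −0.884, and PBRM1 lies on the other side of 0 at 0.269.

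The number of calls between ARID2 and PBRM1 was low among the 325 pairs of knockout clones, which ranged from 81 to 41171 with a median of 8626. Fewer calls were made in 35 pairs. Within PBAF, ARID2 differed from PHF10 at 1852 regions (1.27%) and from BRD7 at 3309 (2.27%). PBRM1 differed from BRD7 at 955 (0.656%) and from PHF10 at 1031 (0.708%), and BRD7 differed from PHF10 at 2980 (2.05%). Over its 25 pairs, ARID2 had a median of 10268 calls and PBRM1 of 4538. Clones of the same gene gave 87 calls for ARID1A (0.0598%) and 314 for SMARCA4 (0.216%), but 6977 for ARID1B (4.79%) and 7019 for BCL7B (4.82%), whose clones differ in the form of their titles. Pairs share clones, so these numbers are a description.

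The knockdown table held separate libraries of ARID2 knockout cells and of cells with an ARID2 knockdown. How much ARID2 was left under the knockdown was not measured here. It was normalized on its own, so that its levels are not comparable with those of the knockout table. In ARID2 knockout cells with a control knockdown, set against wild-type cells with the same knockdown, 544 of 145617 regions were called lower (0.374%) and 65 higher (0.0446%). At the 1219 lower regions of the direct contrast the median log2 fold change was −0.571, 1046 lay below 0 and 125 (10.3%) were called lower. At the 477 higher regions it was 0.284, 315 lay above 0 and 10 (2.1%) were called higher. By library, relative to the control mean, the lower regions had medians of −0.474 and −0.631 and the higher regions of 0.364 and 0.128. Both libraries were below both controls at 65.2% of the lower regions, against 24% of all, and above both at 37.1% of the higher regions, against 21.5% of all. The total of 609 calls became 102 and 182 without ARID2 knockout library 1 or 2, and 167 and 160 without control library 1 or 2. In the most accessible of the 4 groups the median was −0.625 at lower regions, beside −0.313 over all regions.

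The ARID2 knockdown in wild-type cells gave 0 calls by edgeR (0%), with 6167 regions at an unadjusted p under 0.05. The median log2 fold change was −0.162 at the lower regions, of which 865 of 1219 lay below 0, and 0.0859 at the higher regions, of which 276 of 477 lay above 0. Over all regions it was −0.02, with 51.7% below 0. The lower-region value came mostly from 1 library: the medians by library were −0.023 and −0.363, and without replicate 2 of the knockdown the value was −0.0351. Both libraries were below both controls at 34.4% of the lower regions, against 18.5% of all, and above both at 25.6% of the higher regions, against 17.4% of all. In the most accessible of the 4 groups, which holds 772 of the lower regions, their median was −0.188, beside −0.197 over all regions. In the other 3 groups, from the least accessible, the lower regions had medians of −0.12, −0.114 and −0.118, beside 0.133, 0.0953 and 0.000478 over all regions.

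Of the 14 named lower regions, 13 had a negative log2 fold change in the ARID2 knockout cells of the knockdown table and 7 were called lower, beside 49.9% below 0 and 0.374% called lower among all regions. Under the ARID2 knockdown 11 were negative, beside 51.7% of all regions, and none was called. Named regions are above median accessibility, so shares over all regions are not a matched baseline. In the most accessible of the 4 groups, all regions had medians of −0.313 in the ARID2 knockout cells and −0.197 under the ARID2 knockdown. In the next group these were −0.000862 and 0.000478. At chr2:219725484-219726116 the control knockdown libraries measured 21.3 and 19.4 CPM, the ARID2 knockdown 8.7 and 9.19 CPM and the ARID2 knockout 3.24 and 6.73 CPM, with no overlap between the 3 groups. At chr20:17207110-17207911 the same groups measured 14.3 and 14.4, then 8.38 and 7.9, then 3.68 and 6.58 CPM. For the ARID2 knockdown against its control, the edgeR adjusted p was 0.988 at each of these regions. Both knockdown libraries lay below both controls at 5 of the 14 named lower regions (35.7%), against 18.5% of all regions. They lay above both at 1. At chr21:22033472-22035322 the ARID2 knockdown, at 46.7 and 27 CPM, overlapped the control at 36.5 and 37.6 CPM, while the ARID2 knockout held 7.66 and 6.11 CPM. The exception was chr7:157698126-157698880, with 3.68 and 4.54 CPM in the ARID2 knockout and 4 and 3.47 CPM in the control.

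Of the 16 named higher regions, 10 were positive in the ARID2 knockout cells of the knockdown table, 2 of them called, beside 50.1% above 0 and 0.0446% called higher among all regions. Under the ARID2 knockdown 5 were positive, beside 48.3% of all regions. Here too the shares over all regions are not matched for accessibility. The 2 called were chr6:158843514-158844231, at 18 and 8.61 CPM against 5.07 and 4.12 CPM, and chr1:26736378-26737533, at 9.87 and 11.3 CPM against 3.02 and 4.63 CPM. At the latter the ARID2 knockdown lay between, at 5.37 and 6.32 CPM (edgeR adjusted p = 0.988 against its control). Both knockdown libraries lay above both controls at 2 of the 16 named higher regions and below both at 3. The 3 named regions of the chromosome 17 stretches, which are low in the PBRM1 clone, were not called in these libraries.

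**Figure D5:**
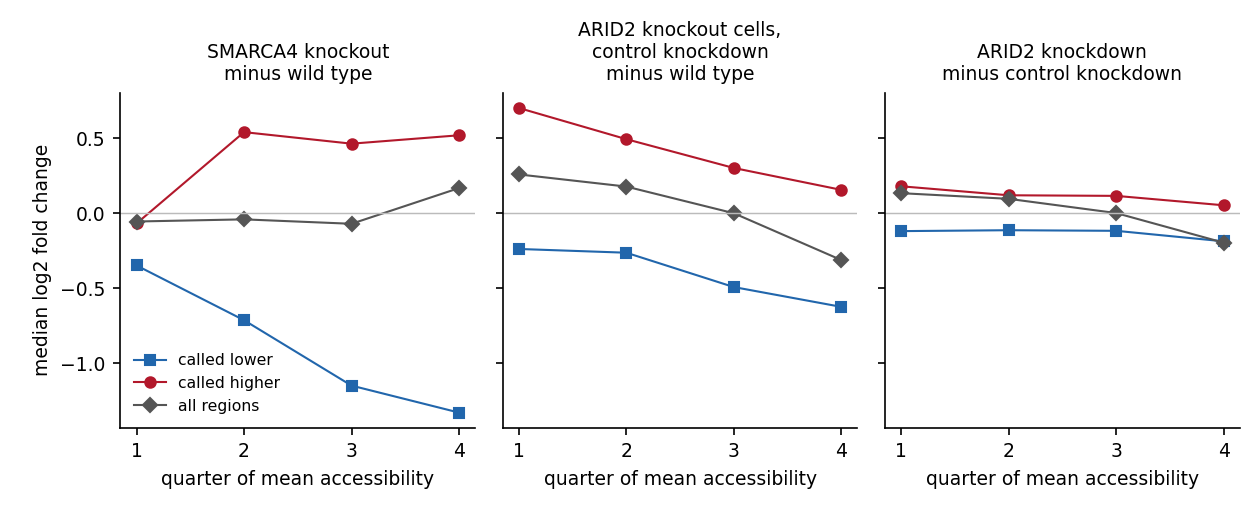
Median log2 fold change in 4 equal groups of regions from the least (1) to the most (4) accessible, for lower, higher and all regions, in the SMARCA4 knockout, the ARID2 knockout of the knockdown table and the ARID2 knockdown. In the most accessible group the lower regions lie at −1.33, −0.625 and −0.188, beside 0.167, −0.313 and −0.197 for all regions.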

How the data were processed

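ATAC-seq was measured in HAP1 clones. The deposited tables hold counts, whole reads per region that the authors had not scaled; a further table holds the authors' normalized accessibility on a log2 scale, as judged from the values, and was used for an alternative test alone. The build is hg19, and MACS2 2.1.1.20160309, Bowtie2 2.2.4 and Picard 1.118 were used, per the submitters' processing notes; how regions were merged and reads counted is not given in the sources used here. Coordinates stand as in the files, whose counting base is not stated.

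Counts were fitted in R 4.3.3 with edgeR 4.0.16 (quasi-likelihood, TMM, default filter, Benjamini-Hochberg over all regions, 2-sided), with 1 coefficient per clone of the 52 knockout libraries and 26 residual degrees of freedom. Comparisons with wild type used a fit of all 56 libraries, from which all CPM of that table come, and the knockdown table a fit of 8 groups with 8 residual degrees of freedom. DESeq2 1.42.0 and limma 3.58.1 served as alternatives. The fit was tested on simulated data. Reads carry no molecular identifiers, so floors cover counting error only.

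Named regions were called, above median accessibility and without overlap between the clones; the 12 largest folds per direction at least 1 Mb apart, the 3 smallest p-values and the 2 most accessible were taken. Regions in the ARID2 and PBRM1 intervals were counted whatever their values. The comparison, lists and tests were chosen with earlier results of these data known. The SMARCA4, ARID1A, BRD7 and PHF10 comparisons, the chromosome 17 stretches and the density of regions were added after seeing the data. Stretches were runs of at least 3 regions at under 10% of the median of the 24 clones other than ARID2 and PBRM1. That median had to be at least 1 CPM. Wild-type replicates 3 and 4 were not analysed here, nor were 2 columns that the labels do not list. No hg19 sequence or annotation was used.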

Additional observations from a re-analysis of the deposited data

How the results depend on the processing

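Of the 717 values of the 30 named regions under the alternatives, 693 stayed called in the same direction, 24 were no longer called and 0 changed sign. Calls were lost at chr17:7463547-7465861 (13 settings), chr1:156675274-156676975 (10) and chr8:58787836-58788675 (1, with DESeq2). No region called between ARID2 and PBRM1 was called in the opposite direction under any alternative. All alternatives used the same ARID2 and PBRM1 libraries, which do not overlap at these regions. A change of sign or a reversed call was therefore largely excluded in advance.

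The 1696 calls (1219 lower, 477 higher) became 789 (582 and 207) with DESeq2 on the 8 PBAF libraries, 1043 (709 and 334) with only the 4 libraries and 826 (626 and 200) at an adjusted p of 0.01; limma on the deposited normalized values called 822 higher, and 662 with each library relative to its median. The counts at 0.01 follow from the stricter threshold, and for the DESeq2 fit and the fit of only the 4 libraries the cause was not tested. Leaving out single libraries gave 528 to 1212 calls, 367 to 1053 lower and 159 to 521 higher. The other normalizations, filters and fits, among them a fit without the 3 clones of the second title form, added after seeing the data (1818), stayed within 1.5 times.

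The replicate numbers pair no samples in the labels, and replicate differences of ARID2 and PBRM1 correlated at −0.112. With the replicate block the calls were 1666, or 754 (524 and 230) in the fit of only the 4 libraries; crossed numbers, added after seeing the data, gave 1826. The block gave 4 calls for the ARID2 knockdown and 3875 for the ARID2 knockout with control knockdown, against 0 and 609.

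Against wild type, pooling all 4 wild-type libraries gave 11057 calls for ARID2 and 3361 for PBRM1, against 2602 and 615; leaving out a single ARID2, PBRM1 or wild-type library gave 884 to 2587 and 116 to 664, where the highest values are those without a library of the clone not compared (PBRM1 replicate 1 and ARID2 replicate 2). For the ARID2 knockout with control knockdown, leaving out single libraries gave 102 to 182 calls, medians of −0.676 to −0.526 at the lower and 0.116 to 0.382 at the higher regions. For the ARID2 knockdown it gave 0 calls, medians of −0.389 to −0.0351 at the lower and 0.0571 to 0.0816 at the higher regions, and RLE size factors gave 0.0706 at the higher regions against 0.0859.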
